A study of Mus musculus with 8 samples.

Results

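Fibroblast growth factors, their receptors and the genes that FGF signalling induces as feedback were examined in mouse palatal shelves, from their posterior region, at E14.5. The set held 33 of the 55536 genes in the deposited table: every protein-coding gene named Fgf or Fgfr with a number, the 4 Sprouty genes, Dusp6, Etv4 and Etv5. Genes entered it by name and not by a measured value, but the set was chosen with earlier results of these data known. Of these, 28 were tested, since 4 or more of the 8 libraries held 10 or more normalised counts of the gene, and 5 were not.

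The mutant group was 4 libraries from Yapfl/fl;Tazfl/fl;Col2Cre embryos, in which floxed alleles of Yap1 and Taz (gene symbol Wwtr1) are combined with Col2Cre, a transgene that expresses Cre recombinase from regulatory sequence of the cartilage collagen gene Col2a1. The control group was 4 libraries from Yapfl/fl;Tazfl/fl embryos at the same stage, so both groups carried the floxed alleles and they differed in the Cre transgene. Each library came from the paired shelves before they had elevated, dissected with epithelium and mesenchyme together. The shelves can hold cells that never expressed this Cre. The labels do not tie the libraries to separate animals, so a p-value here refers to the spread among the libraries, which may be technical. The question, from the series title, is what deletion of Yap and Taz changes in the shelf before it elevates.

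FGF ligands leave one cell and bind tyrosine kinase receptors on another, together with heparan sulphate, and the receptors signal through RAS and ERK. ERK signalling switches on the ETS factors Etv4 and Etv5 and a set of inhibitors, the Sprouty proteins and the ERK phosphatase Dusp6, which damp the pathway. In the palate, ligands of the mesenchyme such as Fgf10 signal to receptors on the epithelium, and loss of Fgf10, Fgf9, Fgf18 or Spry2 can leave mice with a cleft palate.

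Recovered totals were 29025089 to 32437977 reads per library. Yap1 had 8745.0, 8228.5, 8221.2 and 8656.1 normalised counts in mutant replicates 1 to 4, against 9094.6, 9459.2, 10086.2 and 9799.8 in controls 1 to 4, with no overlap (exact two-sided permutation p = 0.0286, the smallest value 4 against 4 allows). Wwtr1 averaged 4007 ± 397 in mutants and 4879 ± 352 in controls (SD, n = 4 each; exact permutation p = 0.0571). In limma over all genes neither targeted gene passed (adjusted p = 0.751 for both), so a gene without a call there is not shown to be the same in both groups. Palatal mesenchyme markers summed to 341983 to 435784 normalised counts in mutant libraries and 391247 to 499166 in controls, and epithelial markers to 63819 to 114591 in mutant libraries and 59479 to 81848 in controls, and all 14 mesenchymal and all 24 epithelial markers reached the level for testing. Libraries differed in the levels of cell type markers. Mutant replicate 2 had the highest epithelial (0.70) and erythroid (0.79) and the lowest osteogenic (-1.71), chondrogenic (-0.94) and endothelial (-0.47) marker levels of the 8, as mean log2 relative to controls, and mutant replicate 3 the highest skeletal muscle level (0.87). Mutant replicate 2 also had 840.4 normalised counts of Xist, the RNA of the inactive X chromosome, against 0 to 17.4 in the other 7 libraries, and its part in the values of that library was not tested.

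No member of the family was called. Of the 28 genes tested, 0 passed the Benjamini-Hochberg adjusted threshold of 0.05 (limma, over 16647 genes), and adjusted p ran from 0.754 to 0.998. Of all genes tested 0.024% passed, 4 genes lower and 0 higher in mutants. DESeq2 and edgeR on recovered whole reads also called 0 members. Without adjustment 5 members had p below 0.05 in limma, Fgf2, Fgf7 and Fgf18 with lower means and Fgf17 and Dusp6 with higher means in mutants, which is 17.9% of the 28 beside 6.57% of all genes (3.79% lower and 2.78% higher). That count depended on single libraries: it dropped to 0 when control replicate 2 was left out, and to 1 when control replicate 3, control replicate 4 or mutant replicate 2 was. It was 3 without mutant replicate 3 and 3 without mutant replicate 4. The median log2 difference was -0.0071 over the 28 members and -0.00015 over all genes tested, with the difference below 0 for 15 members and above 0 for 13. By mean count 12 members were lower and 16 higher in mutants, so the family had no direction that both scales shared. Leaving out a library moved the median of the members between -0.099, without mutant replicate 3, and 0.12, without mutant replicate 4. Groups did not overlap for 1 member, Fgf18, which is 3.57% of the 28 beside 3.77% of all genes (1.91% lower and 1.86% higher). The ribosomal RNA transcript Gm42418 took 1.56% to 2.49% of reads in mutant libraries and 4.22% to 5.66% in controls, and its part in these values was not tested.

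**Figure D1:**
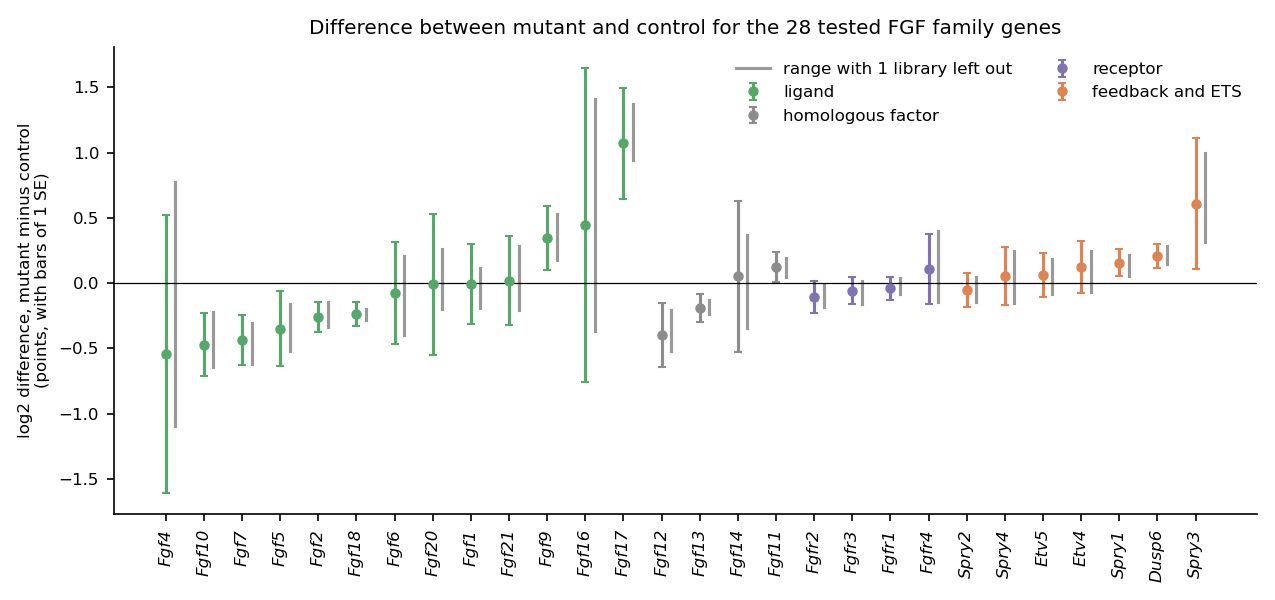
Log2 difference of each of the 28 tested genes, mutant minus control, grouped by role, with bars of 1 SE and, in grey, the range when 1 library is left out. Fgf17 at 1.07 stands highest, and the widest ranges belong to genes at low counts such as Fgf4 and Fgf16.

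The levels of the family spanned more than 2 orders of magnitude when counts were divided by exon length. Fgfr1 was far above the rest at 2007 ± 208 normalised counts per kb of exon in mutants and 2065 ± 237 in controls (SD, n = 4 each), at the 97.0th percentile of all genes tested. Spry1 followed with 871 ± 136 in mutants and 777 ± 66.3 in controls, and Dusp6 with 819 ± 56.1 in mutants and 713 ± 93.0 in controls. Those 2 genes could not be ordered beyond their spread. Fgf18 was the most abundant ligand, at 574 ± 33.3 per kb in mutants and 676 ± 45.8 in controls. Fgf2 came next among the ligands with 249 ± 40.3 per kb in mutants and 296 ± 28.2 in controls, then Fgf7 with 130 ± 41.4 in mutants and 170 ± 14.9 in controls. At the low end of the tested genes, Fgf14, Fgf16, Fgf4 and Fgf20 averaged under 10 per kb in both groups. Lengths are the union of all annotated exons, so a gene with long alternative exons reads low. The union came to 9875 bp for Fgfr1, 10328 bp for Fgfr2, 7158 bp for Fgfr3 and 3542 bp for Fgfr4.

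**Figure D2:**
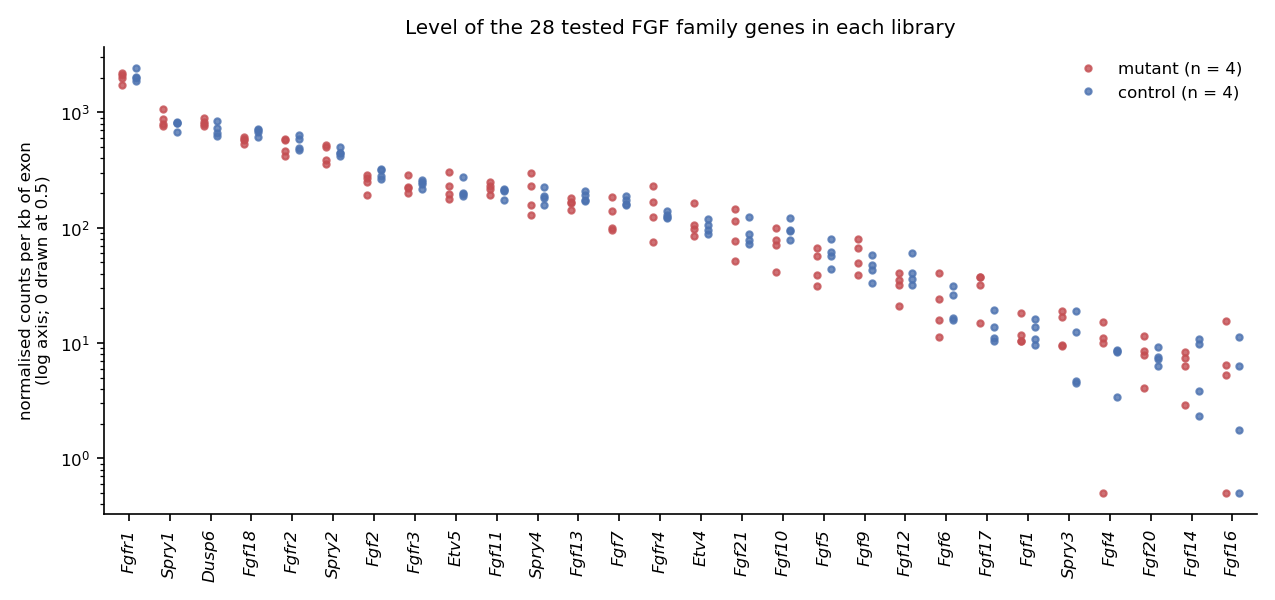
Normalised counts per kb of exon (log axis) for the 28 tested genes, ordered from high to low, with 1 point per library for mutants (left of each pair, n = 4) and controls (right, n = 4). Fgfr1 is highest in both groups, at 2007 per kb in mutants and 2065 in controls, and the groups overlap for every gene shown except Fgf18; counts of 0 are drawn at 0.5.

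Fgf18, Fgf2, Fgf7 and Fgf10, the ligands described first, were lower in mean in the mutants, and none passed the test. Of the 12 secreted ligands tested, 9 had a log2 difference below 0 and 3 above, with a median of -0.15. By mean count 5 were lower and 7 higher in mutants, since Fgf1, Fgf4, Fgf6 and Fgf20 had a higher mean count with a log2 difference below 0. Fgf18, which acts in bone and cartilage growth, lies on chromosome 11 from 33117430 to 33147400. It had 683.6, 626.6, 720.7 and 692.9 normalised counts in mutant replicates 1 to 4, against 727.3, 849.3, 834.1 and 798.4 in control replicates 1 to 4. All mutant libraries lay below all controls, and mutant replicate 3 and control replicate 1 differed by less than 10 counts. The log2 difference was -0.24 (SE 0.0915, limma adjusted p = 0.754) and stayed between -0.28 and -0.20 when any library was left out. Under the other alternatives of processing it ran from -0.28 to -0.11. Fgf18 also had the smallest spread of the family, a within-group SD of 0.0927 on the log2 scale, against a median of 0.378 over the 28 members and 0.190 over all genes tested. Its upstream sequence is shown because it was the sole tested member whose groups did not overlap. It holds neither GGAATG nor CCGGAA, letters bound by TEAD and ETS factors.
Fgf18 (chr11:33147401-33147650, minus strand): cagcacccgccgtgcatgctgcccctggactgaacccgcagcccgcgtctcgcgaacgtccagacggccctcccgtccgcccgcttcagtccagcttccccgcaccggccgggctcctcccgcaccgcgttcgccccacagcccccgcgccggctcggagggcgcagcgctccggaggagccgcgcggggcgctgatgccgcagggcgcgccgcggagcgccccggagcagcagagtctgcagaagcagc

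Markers of bone-forming cells and of vessels also differed between the libraries. Osteogenic markers had mean log2 levels relative to controls of -0.66, -1.71, -1.45 and -0.65 in mutants 1 to 4, against 0.65, -0.22, -0.58 and 0.16 in controls 1 to 4. They summed to 9839 to 28549 normalised counts in mutants and 27675 to 53671 in controls. All 13 markers tested of 14 had log2 differences below 0, 0 passed the adjusted threshold, and Bglap, the osteocalcin gene, was at 0 in all libraries. Endothelial markers summed to 14383 to 19048 in mutants and 19241 to 21084 in controls, with log2 differences below 0 for 9 of 10, 0 past the threshold and none at 0 in all libraries. Fgf18 and the endothelial level had r = 0.83 (exact permutation p = 0.0039) and rho = 0.76 (exact permutation p = 0.037) across the 8 libraries, with adjusted exact permutation p of 0.23 and 0.40 over 280 pairs, and r = 0.86 without mutant replicates 2 and 3. With the osteogenic level Fgf18 had r = 0.53 and rho = 0.71 (adjusted exact permutation p of 0.66 and 0.46). With the chondrogenic level it had r = 0.12 and rho = 0.24 (adjusted exact permutation p of 0.96 and 0.87). In bulk tissue, fewer cells of a type and less RNA per cell cannot be told apart, and the part of these cell types in the ligand values was not tested.

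Fgf2, a broadly expressed ligand without a classical secretion signal, lies on chromosome 3 from 37348346 to 37410108. It had 1686.2, 1307.0, 1819.6 and 1936.9 normalised counts in mutants, against 1804.9, 2131.0, 2207.9 and 1891.4 in controls. Mutant replicate 2 was the lowest library, and mutants 3 and 4 lay among the controls. The log2 difference of -0.26 (SE 0.116, limma adjusted p = 0.754) was -0.14 without mutant replicate 2. Exons of Fgf2 share 640 bp with Nudt6 on the opposite strand, and the sources used here do not say whether counting used strand. Nudt6 averaged 73.5 normalised counts.

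Fgf7 and Fgf10 are related ligands that mesenchyme sends to the epithelial form of Fgfr2. Fgf7 (chromosome 2 from 126034658 to 126091185) had 456.1, 319.9, 597.2 and 312.5 normalised counts in mutants, against 566.5, 612.1, 516.1 and 508.7 in controls. Mutants 1, 2 and 4 lay below every control, and mutant 3 was above 3 of them. The log2 difference for Fgf7 was -0.43 (SE 0.192, limma adjusted p = 0.754), -0.62 without mutant replicate 3 and -0.31 without mutant replicate 4. Fgf10 (chromosome 13 from 118669791 to 118792115) had 456.1, 188.3, 325.1 and 362.1 in mutants, against 558.0, 427.6, 362.2 and 435.0 in controls. The lowest value, in mutant replicate 2, set much of the difference: it was -0.47 (SE 0.239, limma adjusted p = 0.773) with all libraries and -0.22 without that one. Fgf5, known as a brake on hair growth, averaged 121 ± 40.5 in mutants and 151 ± 37.4 in controls, with overlap.

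Fgf9 and Fgf17 had the opposite direction. Fgf9, a ligand of epithelia in several organs, had 231.4, 371.0, 309.7 and 180.0 normalised counts in mutants, against 154.4, 220.6, 200.1 and 269.1 in controls. The groups overlapped, and the log2 difference of 0.34 (SE 0.244, limma adjusted p = 0.815) was 0.18 without mutant replicate 2 and 0.53 without mutant replicate 4. Fgf17, a relative of Fgf8 and Fgf18 (chromosome 14 from 70636205 to 70642268), was scarce, with 25.3, 63.4, 62.7 and 53.6 in mutants, against 23.4, 18.5, 32.8 and 17.7 in controls. Mutants 2, 3 and 4 were above every control and mutant 1 was within their range. At 1.07 its log2 difference was the largest among the 28 (SE 0.425, limma adjusted p = 0.754), and it stayed between 0.94 and 1.37 with any library left out. Under the other alternatives of processing the difference of Fgf17 ran from 0.12 to 1.22, so its size depended on the processing. Fgf1, a ligand that binds all FGF receptors, had 56.4, 99.4, 63.7 and 56.6 in mutants, against 59.6, 75.2, 52.3 and 87.4 in controls. Epithelial markers had log2 differences above 0 for 23 of 24 genes, 0 of them past the adjusted threshold, and their part in the values of Fgf9 was not tested.

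**Figure D3:**
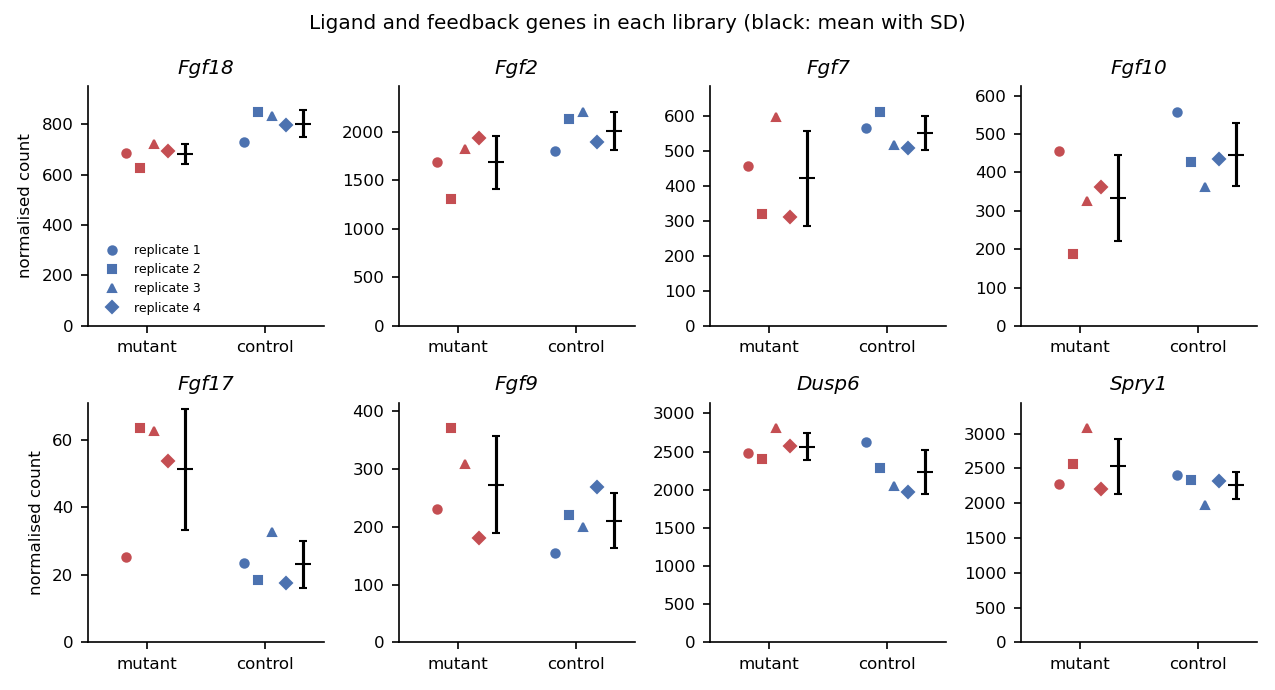
Normalised counts of 6 ligand genes, Dusp6 and Spry1 in each library (symbols mark replicates 1 to 4; mutants left, controls right; black bars give the mean with SD, n = 4). Fgf18 is separated between the groups by a narrow gap, and mutant replicate 2 is the lowest library for Fgf2 and Fgf10 and the highest for Fgf9.

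Several ligands were close to absent at this depth. Fgf8, an ectodermal signal of the early face, had 12.6, 0, 3.9 and 0 normalised counts in mutants, against 0, 0, 21.5 and 0 in controls, and a count of 0 allows up to 3 reads in a library, for counting error only. Fgf22 had 0, 0, 1.0 and 11.1 in mutants, against 1.1, 0, 1.0 and 0 in controls. Fgf23, the phosphate hormone of bone, had 0, 0, 6.8 and 0 in mutants, against 0, 0, 0 and 6.9 in controls. None of the 3 genes separated the groups. Fgf15, the mouse gut hormone of bile acid control, had 48.3 normalised counts in mutant replicate 2, 10.6 in mutant replicate 3 and 0 in the other mutants, against 5.1 in control replicate 3 and 0 in the other controls. Its exons share 761 bp with the antisense transcript Gm26793, so reads of the pair cannot be told apart without strand. Fgf3 had 9.7, 8.5, 13.5 and 10.1 in mutants, against 4.3, 0, 0 and 0 in controls. The groups did not overlap, but Fgf3 did not reach the level for testing and is given as values only. Fgf3, Fgf4 and Fgf15 neighbour each other on chromosome 7, and they did not share a pattern: Fgf4 had 35.0, 32.2, 48.2 and 0 in mutants, against 27.7, 27.3, 26.7 and 10.8 in controls. Fgf16 had 10.7, 0, 8.7 and 25.3 in mutants, against 0, 2.9, 10.3 and 18.7 in controls, and Fgf20 averaged 13.4 ± 5.13 in mutants and 12.8 ± 2.08 in controls. The exons of Fgf20 share 202 bp with Micu3 on the other strand. Fgf21, the fasting hormone of liver, averaged 91.8 ± 38.9 in mutants and 86.1 ± 22.4 in controls.

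The ligands together came to 1342, 1258, 1478 and 1252 normalised counts per kb in mutants 1 to 4, against 1444, 1563, 1562 and 1468 in controls 1 to 4. Only mutant replicate 3 reached into the range of the controls. Within that sum Fgf18 made up 43.1% in mutants and 44.8% in controls, Fgf2 18.7% in mutants and 19.6% in controls, and Fgf7 9.61% in mutants and 11.2% in controls, all with overlap between the groups. Fgf17 made up 2.29% ± 0.810 in mutants and 0.904% ± 0.255 in controls (SD, n = 4 each), with mutant replicate 1 among the controls.

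The FGF homologous factors resemble ligands but stay inside the cell, where they bind sodium channels. Fgf11 had 652.5, 754.3, 706.2 and 580.6 normalised counts in mutants, against 526.0, 662.8, 633.0 and 648.1 in controls. Fgf13 (on the X chromosome) had 575.7, 671.0, 656.1 and 721.2 in mutants, against 770.9, 843.4, 680.2 and 697.2 in controls, and Fgf12 had 248.9, 129.7, 195.9 and 216.5 in mutants, against 375.9, 221.6, 250.3 and 198.4 in controls. The groups overlapped for all of them. Log2 differences were 0.12 for Fgf11 (SE 0.115), -0.19 for Fgf13 (SE 0.107) and -0.40 for Fgf12 (SE 0.247), with limma adjusted p from 0.774 to 0.864. Without control replicate 1, the highest library, Fgf12 was at -0.21. Fgf14 had 31.1, 26.5, 34.7 and 12.1 in mutants, against 16.0, 9.8, 45.1 and 41.2 in controls.

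The receptors stood in the same order by mean in both groups, and 3 of 4 had lower means in mutants (median log2 difference -0.049). Fgfr1, the main receptor of mesenchyme (chromosome 8 from 25513654 to 25575718), had 21630.6, 16961.4, 19780.7 and 20910.9 normalised counts in mutants, against 19453.1, 19819.4, 23804.2 and 18491.8 in controls. It made up 69.2% ± 1.58 of the receptor level per kb in mutants and 69.2% ± 4.05 in controls. Fgfr2, whose splice forms divide between epithelium and mesenchyme, had 6056.2, 4746.5, 4318.5 and 5896.8 in mutants, against 6566.7, 5054.7, 4893.8 and 6074.9 in controls. Its share was 17.5% ± 1.95 in mutants and 18.4% ± 3.13 in controls. Fgfr3, known as a brake on cartilage growth, had 1577.3, 1612.8, 1421.2 and 2042.1 in mutants, against 1768.7, 1556.0, 1703.1 and 1852.1 in controls, a share of 8.04% ± 1.21 in mutants and 8.09% ± 0.781 in controls. None of these 3 receptors separated the groups, with log2 differences of -0.040 for Fgfr1 (SE 0.0909), -0.11 for Fgfr2 (SE 0.121) and -0.058 for Fgfr3 (SE 0.105) and limma adjusted p from 0.891 to 0.958. The sign for Fgfr1 turned to 0.017 after quantile normalisation. Splice forms cannot be separated in gene-level counts, and exons of Fgfr2 share 314 bp with Ctbp2 on the same strand.

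Fgfr4, a receptor known from muscle progenitors, was the receptor that varied most between libraries. It had 437.6, 586.8, 821.1 and 266.0 normalised counts in mutants, against 491.9, 426.6, 455.5 and 434.1 in controls. The mutants held both the highest and the lowest library, with all controls between them. Fgf6, a ligand of skeletal muscle, had its extremes in the same libraries, with 73.9, 112.6, 189.1 and 52.6 in mutants, against 122.5, 146.4, 76.9 and 73.7 in controls. Skeletal muscle markers had mean log2 levels relative to controls of -0.30, 0.27, 0.87 and -0.99 in mutants 1 to 4, against -0.095, 0.026, 0.17 and -0.11 in controls 1 to 4. They summed to 19967 to 76168 normalised counts in mutant libraries and 39533 to 49932 in controls. Of the list 14 of 15 markers were tested, 7 with log2 differences above 0 and 7 below, and none was at 0 in all libraries.

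Across the 8 libraries Fgfr4 and the muscle level had r = 0.96 (exact permutation p = 0.0033) and Spearman rho = 0.79 (exact permutation p = 0.028). After Benjamini-Hochberg adjustment over the 280 pairs of a member and a marker list, p was 0.23 for r, and 0 pairs passed. Without mutant replicates 3 and 4, the libraries farthest out in muscle level, r was 0.62, so the relation rested largely on those 2 libraries. For Fgf6 and the muscle level r was 0.82 with all libraries (Spearman rho = 0.79, adjusted exact permutation p = 0.23 for r and 0.40 for rho) and 0.32 without the same 2. Fgf10 was among the members that varied with several lists. With the chondrogenic list it had r = 0.84 (adjusted exact permutation p = 0.23), rho = 0.98 (adjusted exact permutation p = 0.11), and r = 0.96 without mutant replicate 2 and control replicate 1. Groups of 4 libraries are too small for an r within each. With the osteogenic list Fgf10 had r = 0.87 (rho = 0.76, adjusted exact permutation p = 0.23 for r and 0.40 for rho), and r = 0.74 without mutant replicate 2 and control replicate 1. With the epithelial list r was -0.81 (rho = -0.60, adjusted exact permutation p = 0.28 for r and 0.66 for rho), and -0.48 without mutant replicate 2 and control replicate 2. Fgf10 also had r = -0.91 with the erythroid list (rho = -0.95, adjusted exact permutation p = 0.23 for r and 0.16 for rho), and r = -0.90 without mutant replicates 1 and 2; erythroid markers, 9 of 9 with log2 differences above 0 and 0 past the threshold and none at 0, summed to 28095 to 58527 normalised counts in mutants and 30099 to 40719 in controls. Other members varied with lists to a like degree. Fgf17 had r = -0.83 with the osteogenic list and 0.85 with the erythroid list. Fgf2 had r = 0.88 with the endothelial list, and 0.57 without mutant replicates 2 and 3. Fgfr2 had r = 0.85 with the chondrogenic list (adjusted exact permutation p = 0.23 for r in each of these pairs). The part of these cells in the values of Fgf10, Fgfr4, Fgf6, Fgf17, Fgf2 and Fgfr2 was not tested. Chondrogenic markers, 13 of 14 with log2 differences below 0, had levels of 0.27, -0.94, -0.79 and -0.47 in mutants 1 to 4, against 0.90, -0.18, -0.71 and -0.0085 in controls 1 to 4, summed to 21703 to 47341 normalised counts in mutants and 39316 to 62428 in controls, and none was at 0 in all libraries. All libraries share depth scaling and tissue composition, and the pairs described were chosen after their values were seen.

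**Figure D4:**
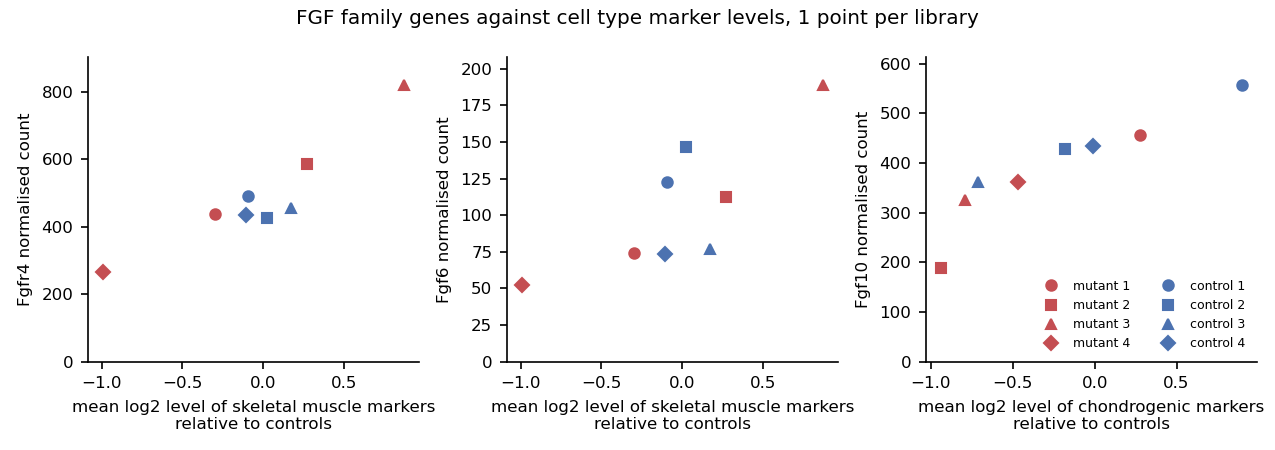
Normalised counts of Fgfr4, Fgf6 and Fgf10 against the mean log2 level of a marker list relative to controls, 1 point per library (red, mutants; blue, controls). Mutant replicates 3 and 4 lie at the 2 ends of the muscle axis, and Fgf10 keeps nearly the order of the chondrogenic level, from 188.3 to 558.0.

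None of the feedback genes was called between the groups. Dusp6, the ERK phosphatase (chromosome 10 from 99263231 to 99267489), had 2479.7, 2401.1, 2806.7 and 2577.2 normalised counts in mutants, against 2620.5, 2285.2, 2054.0 and 1969.0 in controls. All mutants were above controls 2, 3 and 4, and control replicate 1 lay above mutants 1, 2 and 4. The log2 difference was 0.21 (SE 0.0906, limma adjusted p = 0.754). Spry1 (chromosome 3 from 37639947 to 37644598), an inhibitor of receptor tyrosine kinase signalling, had 2279.4, 2556.4, 3076.8 and 2207.0 in mutants, against 2405.4, 2329.2, 1975.0 and 2325.5 in controls. The Spry1 difference of 0.16 on the log2 scale (SE 0.104, limma adjusted p = 0.808) was 0.057 without mutant replicate 3. Spry2 had 742.0, 1047.7, 1094.1 and 800.1 in mutants, against 1040.3, 930.3, 929.5 and 874.0 in controls, and Spry4 had 614.6, 1100.7, 1423.1 and 753.5 in mutants, against 898.7, 866.8, 1069.0 and 750.3 in controls. Both spread more among the mutants than among the controls. Spry3, annotated on an unplaced scaffold, averaged 59.2 ± 21.1 in mutants and 44.2 ± 30.5 in controls.

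The groups overlapped for both ETS factor genes. Etv4 had 305.3, 330.3, 506.5 and 264.0 normalised counts in mutants, against 325.8, 368.0, 293.4 and 272.0 in controls. Etv5 had 945.2, 733.5, 1240.8 and 799.1 in mutants, against 1131.9, 769.2, 805.4 and 824.9 in controls. Mutant replicate 3 was the highest of the 8 libraries for all of Spry1, Spry2, Spry4, Dusp6, Etv4 and Etv5. The mean log2 level of these 6 genes relative to controls was -0.10, 0.098, 0.48 and -0.11 in mutants 1 to 4, against 0.15, 0.015, -0.043 and -0.13 in controls 1 to 4. The same library had the highest skeletal muscle level. With that level, r across the 8 libraries was 0.81 for Spry4, 0.81 for Etv4 and 0.76 for Spry2. For Spry1 it was 0.63, for Etv5 0.41 and for Dusp6 0.088 (adjusted exact permutation p for the 6 genes from 0.25 to 0.97). Without mutant replicates 3 and 4, r was 0.95 for Spry4, 0.72 for Spry2 and 0.24 for Etv4. The same omission gave -0.0032 for Spry1, -0.65 for Etv5 and -0.23 for Dusp6. The part of muscle in the feedback level of mutant replicate 3 was not tested. Without mutant replicate 3 the log2 difference of Etv4 was -0.067, of Etv5 -0.086 and of Spry4 -0.15, each opposite in sign to the value with all libraries.

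All 15 pairs among the 6 feedback genes had a positive r across the 8 libraries, from 0.25 to 0.88, with a median of 0.61, and 0 of 15 passed after Benjamini-Hochberg adjustment. Spry2 with Spry4 had r = 0.88 (exact permutation p = 0.0039, adjusted p = 0.058) and rho = 0.90 (exact permutation p = 0.0046, adjusted p = 0.068). Without mutant replicates 1 and 3, the libraries farthest out in Spry2, r was 0.73. Spry1 with Etv4 had r = 0.83 (exact permutation p = 0.021, adjusted p = 0.16) and rho = 0.81 (exact permutation p = 0.022, adjusted p = 0.10), and r was 0.53 without mutant replicate 3 and control replicate 3. For deviations from the group means the median r was 0.60. The median depended on mutant replicate 3: it was 0.21 without that library. Spry2 with Spry4 passed when control replicate 1 was left out, and the same pair and Spry1 with Spry4 when control replicate 3 was.

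**Figure D5:**
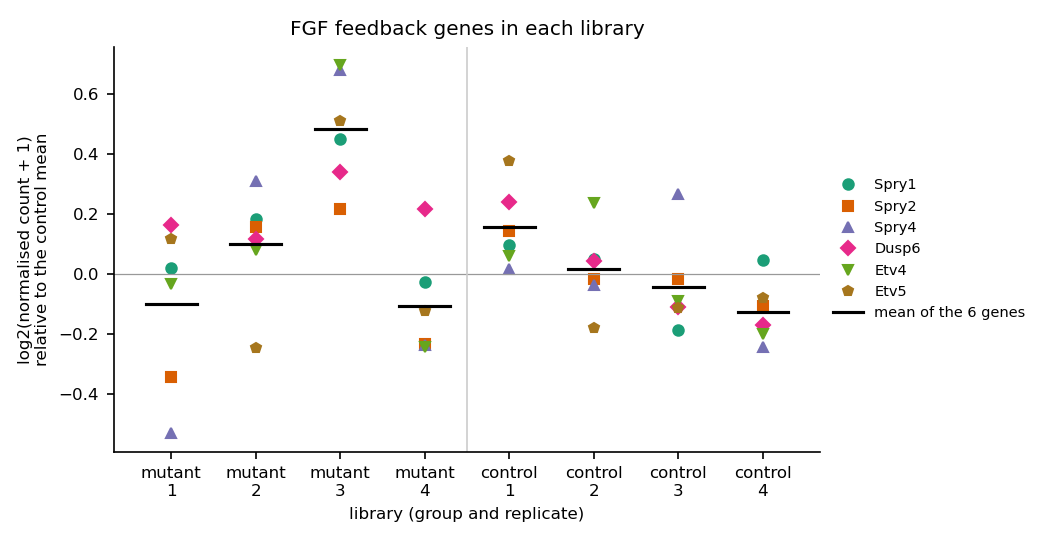
Log2(normalised count + 1) of 6 feedback genes relative to the control mean in each library (mutants left, controls right; coloured symbols are genes, black lines their mean). All 6 genes are highest in mutant replicate 3, where the mean is 0.48; the other 7 libraries lie between -0.13 and 0.15.

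The 250 bases before the start of each gene were searched on both strands for GGAATG, letters bound by the TEAD partners of YAP and TAZ, and for CCGGAA, letters bound by ETS factors. The pair can overlap where CCGGAA runs into GGAATG. RefSeq starts on GRCm38.p6 were at hand for 23 of the 33 genes, in 31 windows. GGAATG stood in 4 of those windows (12.9%), those of Fgf3, Fgf11, Fgf12 and Spry1, and in 12.6% of 32851 windows of all genes. CCGGAA stood in 3 windows (9.68%), those of Fgf5, Fgf12 and Fgfr4, and in 12% of all. A match describes letters and not a bound site. RefSeq starts need not equal those of the deposited table, and 16 of the 31 windows, among them those of Fgf3 and Fgfr4, overlapped the gene as deposited. The Spry1 window ends at the base before the gene as deposited. It is shown, with GGAATG in capitals, as the sole window with that match among those of Spry1, Spry2, Dusp6 and Etv5. Spry3, Spry4 and Etv4 had no window and were not searched.
Spry1 (chr3:37639697-37639946, plus strand): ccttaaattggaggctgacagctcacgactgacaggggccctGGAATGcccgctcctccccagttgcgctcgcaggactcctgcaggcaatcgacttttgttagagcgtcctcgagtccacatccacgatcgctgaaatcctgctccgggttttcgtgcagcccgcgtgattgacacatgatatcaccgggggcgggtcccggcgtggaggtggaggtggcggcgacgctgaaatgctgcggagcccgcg
The match in Spry1 begins 208 bases before the start.

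None of the other pathway genes was called. Of 99 genes in 5 lists, 98 were tested and 0 passed in either direction, with a median log2 difference of 0.022, above 0 for 52 and below 0 for 46. Without adjustment 13 had p below 0.05 in limma, which is 13.3% beside 6.57% of all genes. Groups did not overlap for 2, Ier2 and Hs6st1, which is 2.04% beside 3.77% of all genes; Hs6st1 was named after its values were seen. Heparan sulphate genes had log2 differences below 0 in 18 of 26 cases, with a median of -0.043, and lower mean counts in 17. Sulf2, which trims sulphate from heparan chains, averaged 31230 ± 5031 normalised counts in mutants and 37595 ± 2817 in controls, Gpc6, a membrane glypican, 3885 ± 406 in mutants and 4428 ± 178 in controls, and Sulf1 9359 ± 363 in mutants and 10311 ± 744 in controls (limma adjusted p = 0.754 each). Further inhibitors had higher means in 10 of 16 cases, among them Lrig1, an inhibitor of receptor tyrosine kinases, with 6075 ± 713 in mutants and 5088 ± 547 in controls, the phosphatase gene Ptprr with 210 ± 69.2 in mutants and 136 ± 18.3 in controls, and the ERK phosphatase gene Dusp4 with 341 ± 86.2 in mutants and 246 ± 42.2 in controls. The early gene Ier2 had 1521.8, 1732.0, 1539.8 and 1683.1 in mutants, against 1270.3, 1214.4, 1397.3 and 1460.3 in controls, without overlap (log2 difference 0.28, SE 0.0811, limma adjusted p = 0.754). In its list of 18 transcription factors and early genes, 12 had log2 differences above 0 and 9 had higher mean counts, Tbx1 with 1341 ± 197 in mutants and 987 ± 219 in controls, and the cyclin gene Ccnd1 was lower in mean, with 8641 ± 799 in mutants and 9821 ± 702 in controls. Binding partners had higher means in 6 of 10 cases, and N-cadherin, Cdh2, had 3066 ± 363 in mutants and 3583 ± 316 in controls. The signalling arms had higher means in 16 of 28 cases, and Pik3r1, a PI3-kinase subunit, had 5309 ± 154 in mutants and 5875 ± 409 in controls.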

How the data were processed

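RNA of 8 libraries was sequenced on an Illumina HiSeq, per the labels' protocols. The signal values deposited by the authors are normalised counts, gene-level read counts scaled by a library's size factor and kept to 1 decimal, as the values show. The authors also deposited variance-stabilised values near the log2 scale, used in 1 alternative. The submitters' processing notes name STAR 2.7.2 and DESeq2; the sources used here do not give the counting tool, strand setting, annotation or build. Gene positions equalled those of GENCODE M21 (GRCm38) for 28 of the 33 members. Whole reads were recovered, with 100% of values from 50 to 5000 whole within 0.06 reads in every library.

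The limma 3.58.1 fit (R 4.3.3) compared genotypes, two-sided, with an intensity trend and log2 values after adding 1. Lowly counted genes were filtered as given above, and p was adjusted over all 16647 genes. The fit was tested on simulated counts with the same spread setting for every gene and no differences in cell type between libraries. That test therefore does not show how the fit performs on these libraries. Correlations and the targeted genes used exact permutation of libraries in Python 3.11.15. Exon lengths are from GENCODE M21, and promoters from RefSeq on GRCm38.p6. The members, lists and tests were chosen with earlier results of these data known. The named genes were Yap1, Wwtr1, all members, and up to 3 genes per pathway list by smallest limma p. The correlations with marker lists and the counts at unadjusted p were added after seeing the data. Alternatives were pseudocounts of 0.5 and 8, other filters and scalings, library weights, robust variances, a block, leaving out each library, the stabilised values, and edgeR 4.0.16 and DESeq2 1.42.0 on recovered reads. The floor of 3 reads covers counting error only, while SEs and SDs refer to the spread among libraries.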

Additional observations from a re-analysis of the deposited data

Results flagged for a closer look

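In a group of 4 libraries, a library was listed here when its gap to the nearest other as a share of the group's range exceeded Dixon's 95% critical value. Of 70 groups examined 9 were listed. The critical value lists about 1 in 20 for normally distributed values, which counts near 0 are not. The listed groups of Fgf15, Fgf23, Fgf3 and Fgf8 were at 0 in every library but the listed library, and such a group is always listed. The number listed is therefore not read against 1 in 20. In controls, Etv5 was at 1131.9 normalised counts in replicate 1, the next being 824.9. Fgf4 was at 10.8 in control replicate 4, below 26.7 to 27.7 in the others. Fgf1 was at 99.4 in mutant replicate 2, above 56.4 to 63.7 in the other mutants. The remaining 6 concern genes at or near 0: Fgf22 at 11.1 in mutant replicate 4, Fgf23 at 6.8 in mutant replicate 3 and at 6.9 in control replicate 4, Fgf15 at 5.1 and Fgf8 at 21.5 in control replicate 3, and Fgf3 at 4.3 in control replicate 1.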

How the results depend on the processing

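No member passed the adjusted threshold under any of the 21 alternatives, and the smallest adjusted p was 0.52, for Fgf17 without mutant replicate 1. Of 579 values of members under alternatives, 521 kept their direction and 58 turned, in 14 of the 28 genes. No pathway gene was called under any alternative. Over all genes, 4 were called, 0 with robust variances, 28 with DESeq2 and 0 to 11 when a library was left out (0 without control replicate 2, control replicate 4 or mutant replicate 3, 8 without mutant replicate 4 and 11 without control replicate 3). Members with unadjusted p below 0.05 numbered 5, 3 with library weights, 3 in edgeR and 0 to 4 when a library was left out. The median of the members ranged from -0.099 to 0.12, and feedback pairs called from 0 to 2, over the same omissions. With a library left out Yap1 lay between -0.21 and -0.16 and Wwtr1 between -0.35 and -0.24, and under the other alternatives between -0.22 and -0.15 and between -0.37 and -0.22.

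The first number of each title, whose meaning the labels do not give, was tried as a replicate block: 0 members and 6 genes in all were called. The numbers of control replicate 1 and mutant replicate 1 occurred in no other library, so with the block these libraries added nothing to the difference. Mutant replicates 2 and 3 and control replicate 3 had the number 3602. Control replicates 2 and 4 and mutant replicate 4 had 2057. Libraries of the same group that share a number were not compared with each other. Mutant and control libraries with the same number had correlations of deviations from -0.0077 to 0.10. Those with different numbers had correlations from -0.085 to 0.076. The ranges overlap, and so few values cannot decide whether a number marks a shared origin. The main fit did not treat these libraries as pairs. Signs turned with that block for Fgf21 (-0.14), Spry2 (0.016), Fgf14 (-0.63), Fgfr3 (0.048), Fgfr4 (-0.043), Fgf1 (0.043), Fgf16 (-0.14) and Fgf20 (0.18). Other turns were Fgf20 at 0.011 with a pseudocount of 8; Fgfr1 at 0.017 and Fgf1 at 0.012 after quantile normalisation; and Fgf21 at -0.041 and Fgf20 at 0.021 with library weights. With stabilised values Fgf14 was at -0.0021, Fgf1 at 0.00011 and Fgf20 at 0.0014. On recovered reads edgeR gave -0.097 for Fgf14, 0.010 for Fgf1, 0.32 for Fgf4, 0.031 for Fgf6 and 0.061 for Fgf20, and DESeq2 gave -0.10, 0.0073, 0.32, 0.029 and 0.058 for the same genes.

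Leaving out a library turned the sign for Fgf14 (range -0.34 to 0.37), Fgf6 (-0.40 to 0.21), Fgf16 (-0.37 to 1.41), Fgf21 (-0.21 to 0.29), Fgf1 (-0.19 to 0.12), Fgf20 (-0.20 to 0.26), Fgf4 (-1.10 to 0.78), Fgfr1 (-0.085 to 0.036), Fgfr3 (-0.16 to 0.013), Fgfr4 (-0.14 to 0.40), Spry2 (-0.14 to 0.045), Spry4 (-0.15 to 0.25), Etv4 (-0.067 to 0.25) and Etv5 (-0.086 to 0.19). The causes were not tested. These genes ranged widely in level. Fgf16 averaged 11.175 normalised counts in mutants and 7.975 in controls, and Fgfr1 19820.9 in mutants and 20392.1 in controls. The part of counting error was not tested.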
